A study of Homo sapiens with 8 samples.

Results

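The genes described here are 52 genes of the G2 and M phases of the cell cycle, taken as a list of symbols and matched to 52 of the 60617 gene identifiers in the count table. The rule that names them uses no value of these libraries, but the list was chosen with earlier results of these data known. All 52 members passed the filter on low counts. RNA was sequenced from HEK293T, a transformed line that grew out of human embryonic kidney cells, in 8 libraries of 4 groups with 2 libraries each. WT is the parental line, and the other groups carry the labels sgKDM5C, sgKDM6A and sgKMT2B and the genotypes KDM5C knockout, KDM6A knockout and KMT2B knockout. KDM5C is a histone H3 lysine 4 demethylase, KDM6A a histone H3 lysine 27 demethylase and KMT2B a histone H3 lysine 4 methyltransferase, and each comparison asks how the transcripts of dividing cells differ when that gene is targeted. No label names a treatment, a time point, a control guide or whether a knockout group is 1 clone or a pool. Separate cultures are not named for the replicates either, and the spread that the p-values measure may then be technical.

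Total counts lay between 15868353 in WT replicate 2 and 27591724 in sgKDM6A replicate 2. Levels are given as TMM-scaled CPM, read counts relative to the library total, replicate 1 before replicate 2, and 3 counts correspond to between 0.107 and 0.195 CPM. A change is the log2 ratio fitted by edgeR's quasi-likelihood test, and its standard error was derived from that ratio and the test's F statistic. A gene was called at a Benjamini-Hochberg adjusted p under 0.05 over the 17527 genes tested. Each targeted gene was lowest in its own knockout. KDM5C stood at 440.4 and 471 CPM in WT and 331 and 312 in sgKDM5C, KDM6A at 54.2 and 61.2 in WT and 10.3 and 11.5 in sgKDM6A, and KMT2B at 146 and 137 in WT and 63 and 75.5 in sgKMT2B. The log2 changes were -0.50 ± 0.08, -2.39 ± 0.13 and -1.03 ± 0.11 (SE), so the transcript of KDM5C was still abundant in the libraries labelled as its knockout. Of 13 markers fixed for the HEK293 line, 12 were above 1 CPM in WT, 11 in each knockout, and NEFM was at 0 in sgKDM5C and sgKDM6A. The summed level of 12 markers of blood, endothelial and connective tissue cells was 55.5 to 56.7 CPM in WT, 32.3 to 35.8 in sgKDM5C, 24.3 to 25.9 in sgKDM6A and 82.5 to 95.6 in sgKMT2B, with 3, 5, 4 and 2 of the 12 at 0. Their part in any result was not tested.

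Cells duplicate their DNA in S phase, and in G2 they accumulate the proteins that build the spindle and separate the chromosomes in mitosis. Most of these genes are transcribed late in the cycle: in resting and early cycling cells the DREAM complex, with the MuvB core, holds them low, and later MuvB acts with B-MYB and FOXM1 to raise them. The complex meets their promoters at a short element called the cell cycle genes homology region, often TTTGAA, commonly found downstream of CCAAT boxes bound by NF-Y. Whether this control is intact in HEK293T, a transformed line, was not tested. In a bulk RNA sample, a larger share of cells in G2 and M and more of these transcripts in each such cell cannot be told apart.

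The promoters of 8 members are shown because they cover the 6 members called against WT in all 3 knockouts (CCNB1, CENPF, KIF14, ASPM, CKAP2L and CKAP5) and the mitotic kinase PLK1 and kinesin KIF11, with TTTGAA close to the start. Each is the 100 bases before the RefSeq transcription start (GRCh38.p14), written 5′ to 3′ on the gene's strand, with TTTGAA and CCAAT in capitals on either strand (TTCAAA and ATTGG when reversed).
CCNB1: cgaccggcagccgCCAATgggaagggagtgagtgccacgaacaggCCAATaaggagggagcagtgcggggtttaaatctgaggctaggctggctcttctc
CENPF: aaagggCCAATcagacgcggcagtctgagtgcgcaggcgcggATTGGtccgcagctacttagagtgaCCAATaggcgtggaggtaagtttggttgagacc
KIF14: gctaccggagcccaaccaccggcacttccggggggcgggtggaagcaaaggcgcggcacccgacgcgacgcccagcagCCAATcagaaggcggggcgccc
ASPM: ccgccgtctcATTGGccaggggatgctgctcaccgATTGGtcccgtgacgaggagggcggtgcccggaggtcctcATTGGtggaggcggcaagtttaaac
CKAP2L: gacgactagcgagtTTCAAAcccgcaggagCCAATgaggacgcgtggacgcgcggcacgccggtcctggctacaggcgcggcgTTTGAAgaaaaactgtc
CKAP5: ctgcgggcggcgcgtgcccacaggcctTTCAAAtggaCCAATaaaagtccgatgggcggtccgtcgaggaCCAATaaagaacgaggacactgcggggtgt
PLK1: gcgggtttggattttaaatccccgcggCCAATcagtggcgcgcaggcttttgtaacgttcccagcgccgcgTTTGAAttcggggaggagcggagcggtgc
KIF11: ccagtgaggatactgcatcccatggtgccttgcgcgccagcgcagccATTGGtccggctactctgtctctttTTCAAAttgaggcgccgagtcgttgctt
The stretches lie as follows: CCNB1 at chr5:69167050-69167149 on the plus strand, CENPF at chr1:214603095-214603194 on the plus strand, KIF14 at chr1:200620752-200620851 on the minus strand, ASPM at chr1:197146670-197146769 on the minus strand, CKAP2L at chr2:112764610-112764709 on the minus strand, CKAP5 at chr11:46846281-46846380 on the minus strand, PLK1 at chr16:23678789-23678888 on the plus strand, and KIF11 at chr10:92593030-92593129 on the plus strand. PLK1 holds TTTGAA with its first base 29 bases before the start, KIF11 at 28, CKAP2L at 17 and 86, and CKAP5 at 73. ASPM has it 113 bases before the start, outside the stretch. CCNB1, CENPF and KIF14 do not have these letters in the 250 bases before the start. Past the start, TTTGAA or its reverse begins at base 2 in KIF14, base 41 in CENPF and base 18 in CKAP5. All 8 stretches hold at least 1 CCAAT box.

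RefSeq promoters were matched by symbol, without a check of the chromosome, for 46 of the 52 members, with 58 start sites between them. In the 250 bases before the start, TTTGAA or its reverse stood in 48.3% of the 58 member promoters and in 13.3% of 35116 promoters of all genes. In the last 50 bases before the start the shares were 27.6% and 2.28%. Over a window of 300 bases that runs past the start they were 62.1%, in 33 members, and 15.2%. CCAAT stood in 72.4% of member promoters and 32.0% of all promoters over 250 bases. The E2F strings TTTGGCGC and TTTCCCGC were found in 3.45% of member promoters against 1.93% of all, and the forkhead strings GTAAACA and ATAAACA in 1.72% against 6.56%. Each string was counted on both strands and separately from the others, so matches of different strings may share bases, and a match is a string, not a measured binding site. The 26 members with TTTGAA in the 250 bases before the start had median log2 changes of 0.09, 0.17 and 0.15 in sgKDM5C, sgKDM6A and sgKMT2B against WT. The 20 members without it there had 0.15, 0.14 and -0.02, and some of these 20 hold it at or past the start. The order of the medians therefore differed between knockouts.

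Against WT, the list moved little as a whole and its members moved in both directions. Summed over the 52 members, the level was 6355 and 6289 CPM in WT, 6276 and 6368 with sgKDM5C, 6511 and 6829 with sgKDM6A, and 6611 and 6735 with sgKMT2B. The sgKDM5C libraries enclosed those of WT, and both libraries of sgKDM6A and of sgKMT2B lay above them. The median member changed by 0.07, 0.11 and 0.11 in sgKDM5C, sgKDM6A and sgKMT2B, where the median of all genes tested changed by 0.02, 0.01 and 0.00.

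In sgKDM5C, 9 members rose and 5 fell, where 11.1% of all genes rose and 11.5% fell (22.6% called). These were 17.3% and 9.62% of the list. In sgKDM6A, 14 members rose and 1 fell (26.9% and 1.92% of the list), against 12.6% and 14.6% of all genes (27.2% called). In sgKMT2B, 7 rose and 2 fell (13.5% and 3.85%), against 13.7% and 14.5% (28.1% called). The higher calls of sgKDM6A are the count that lies farthest above its background share, and the shares of lower calls lie below it in each knockout. In the joint test of the 4 groups, 19 members were called, 36.5% of the list, against 49% of all genes.

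Across the 3 comparisons, 23 members (44.2%) were called at least once and 29 in none, beside 48.5% of all genes called at least once. The 6 members called in all 3 (11.5%, beside 7.63% of all genes) had the same direction each time, as did 6.81% of all genes: CCNB1, CENPF, KIF14, ASPM and CKAP2L were higher in the knockouts and CKAP5 was lower. The 3 comparisons share the same WT libraries, so a WT value that lies off by chance enters all of them. CENPF, KIF14 and ASPM lie on chromosome 1. In sgKMT2B, genes of at least 5 CPM within 5 Mb of each had medians of 0.48, 0.31 and 0.50. Such genes over the whole chromosome had a median of 0.09. The part of this shift in the sgKMT2B values of CENPF, KIF14 and ASPM was not tested. The plot of changes by role shows called members in every role but that of the transcription factor.

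**Figure D1:**
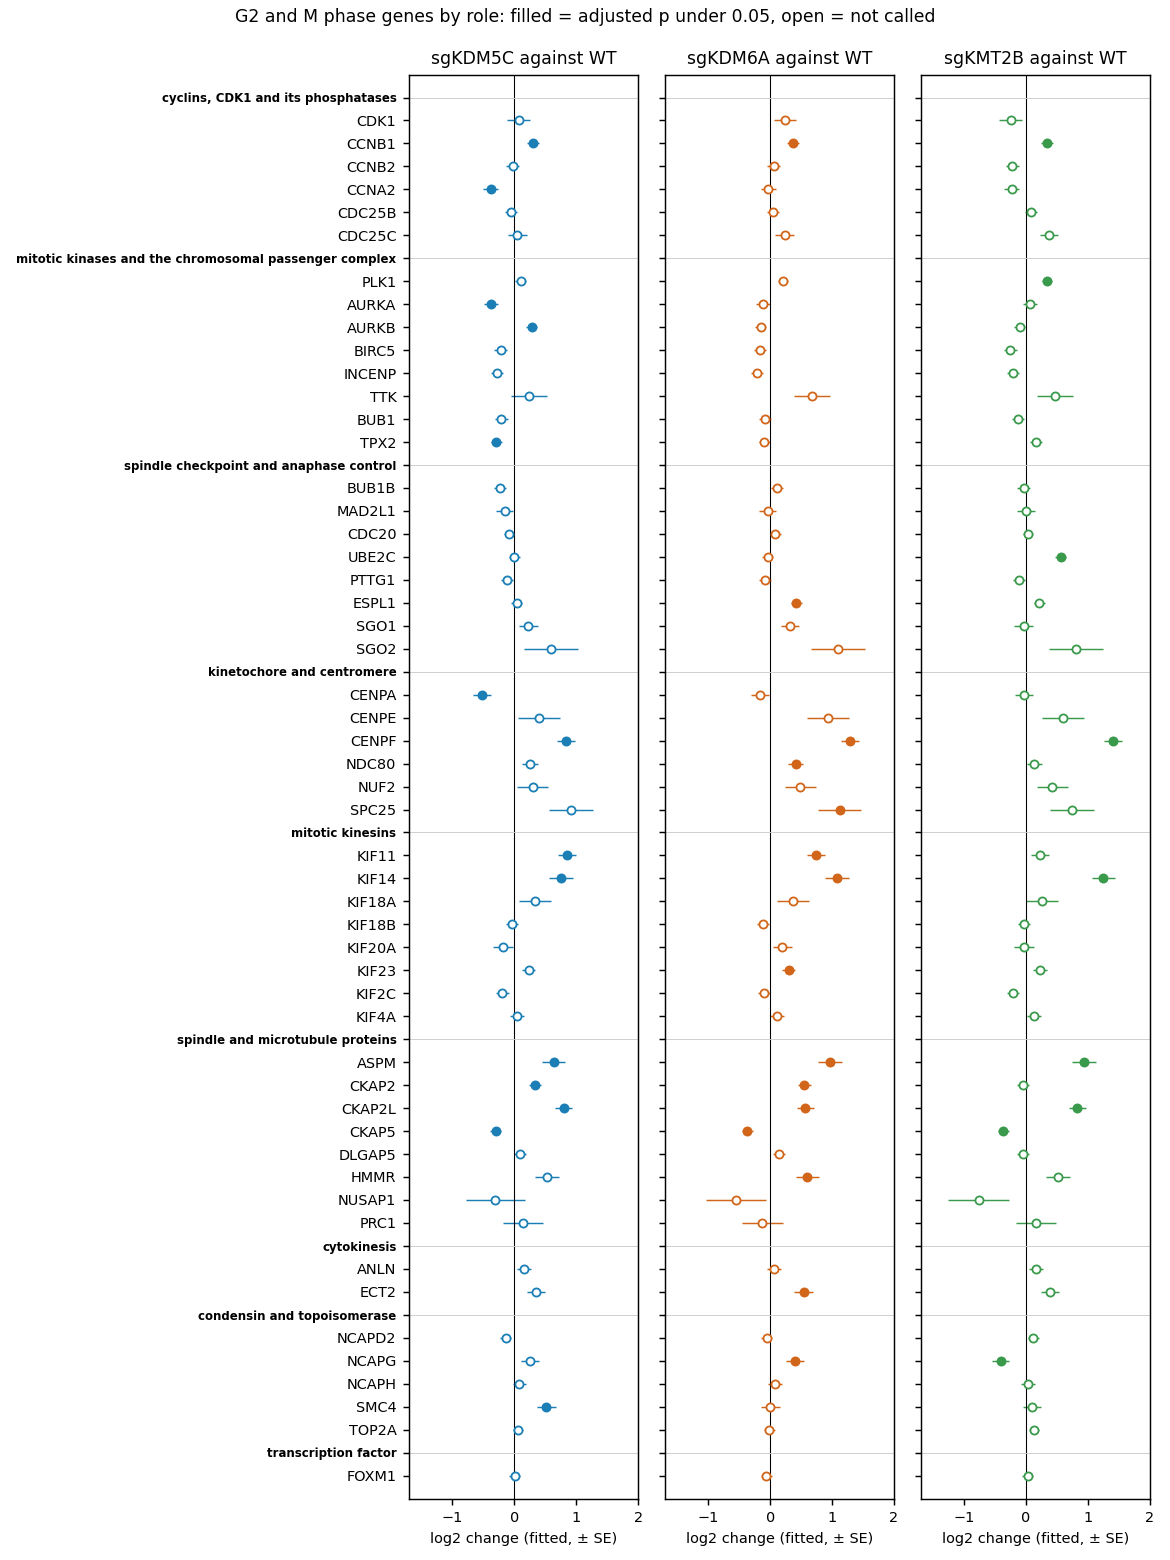
Fitted log2 change of each of the 52 members against WT (horizontal axis, bars ± SE) in the 3 knockouts, grouped by role, with filled points for members called at an adjusted p under 0.05. Most called members lie to the right of 0 (9, 14 and 7 higher in sgKDM5C, sgKDM6A and sgKMT2B), and 5, 1 and 2 lie to the left.

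The cyclins and CDK1 form the kinase that drives entry into mitosis, and the CDC25 phosphatases switch it on. CCNB1 (cyclin B1, chr5:69167010-69178245, GRCh38, GENCODE 29) stood at 237 and 243 CPM in WT, 322 and 268 in the sgKDM5C libraries, 319 and 304 in those of sgKDM6A, and 312 and 299.9 in those of sgKMT2B. All 6 knockout libraries lay above both WT libraries. The changes were 0.29 ± 0.10 (adjusted p = 0.0414), 0.38 ± 0.10 (adjusted p = 0.0112) and 0.35 ± 0.10 (adjusted p = 0.0162), and its neighbours (tested genes of at least 5 CPM within 5 Mb) had medians of 0.12, 0.09 and 0.01. In sgKDM5C the call was lost without any 1 of 7 of the 8 libraries, all but sgKDM5C replicate 2, with an adjusted p of up to 0.404 without sgKDM5C replicate 1. In sgKDM6A it was lost without sgKDM6A replicate 1 (adjusted p = 0.0872), and in sgKMT2B without either sgKMT2B library (adjusted p up to 0.111).

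CCNA2, cyclin A2, which acts from S phase into G2, went the other way in sgKDM5C. It stood at 123 and 157 CPM in WT, 114 and 99.9 under sgKDM5C, 141 and 133 under sgKDM6A, and 122 and 117 under sgKMT2B. The sgKDM5C libraries lay below the others, with a change of -0.38 ± 0.12 from WT (adjusted p = 0.0321). That call did not hold without WT replicate 2 (-0.21, adjusted p = 0.207) and without sgKDM5C replicate 2.

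CDK1, the kinase itself, was measured at 141 and 94.1 CPM in WT, 109.7 and 138 with sgKDM5C, 119.8 and 159 with sgKDM6A, and 89.7 and 109.7 with sgKMT2B. The WT libraries were farther apart than those of any knockout, and every knockout overlapped WT. Its changes of 0.07 ± 0.18, 0.24 ± 0.18 and -0.24 ± 0.18 were not called. CCNB2, CDC25B and CDC25C were not called in any knockout either, with changes between -0.22 and 0.37.

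PLK1, the kinase that acts from mitotic entry to cytokinesis, was measured at 256 and 239 CPM in WT, 276 and 255 in the sgKDM5C libraries, 285 and 286 in those of sgKDM6A, and 312 and 314 in those of sgKMT2B. It rose in sgKMT2B by 0.34 ± 0.08 (adjusted p = 0.00935), with both libraries above all the others, and its neighbours had a median of -0.05. The changes of 0.10 ± 0.08 in sgKDM5C and 0.21 ± 0.08 in sgKDM6A (adjusted p = 0.0859) did not pass. Without either sgKMT2B library the call was lost (adjusted p up to 0.064).

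The Aurora kinases differed in sgKDM5C in opposite directions. AURKA, which with its activator TPX2 works at spindle poles, stood at 115 and 145 CPM in WT, 103 and 96.6 under sgKDM5C, 116 and 125 under sgKDM6A, and 139 and 134 under sgKMT2B. TPX2 stood at 327 and 378 CPM in WT, 283 and 293 with sgKDM5C, 313 and 347 with sgKDM6A, and 387 and 405 with sgKMT2B. Both genes were lowest in sgKDM5C, and both sgKDM5C libraries lay below both WT libraries. AURKA fell there by 0.38 ± 0.11 on the log2 scale (adjusted p = 0.0268) and TPX2 by 0.29 ± 0.09 (adjusted p = 0.0407). Both calls were lost without WT replicate 2 or either sgKDM5C library, with an adjusted p of up to 0.169 for AURKA and 0.192 for TPX2. The TPX2 call was also lost without sgKDM6A replicate 2 or either sgKMT2B library, and with offsets for GC content (adjusted p = 0.0749).

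AURKB, the kinase of the chromosomal passenger complex, which corrects faulty attachments of chromosomes to the spindle, was measured at 181 and 164 CPM in WT and 214 and 204 in sgKDM5C. It stood at 150.4 and 160.3 in sgKDM6A and 161 and 160.4 in sgKMT2B, so the sgKDM5C libraries were above all others. The change in sgKDM5C was 0.28 ± 0.09 (adjusted p = 0.0406), with a neighbour median of -0.06. It was lost without any 1 of 7 of the 8 libraries, all but WT replicate 1, with an adjusted p of up to 0.222. Its partners in that complex were not called: INCENP changed by -0.28 ± 0.10 in sgKDM5C (adjusted p = 0.0545) and -0.21 ± 0.10 in each of the others, and BIRC5 (survivin) by -0.22 ± 0.10, -0.17 ± 0.10 and -0.25 ± 0.10. BUB1 was not called. TTK, the checkpoint kinase also known as MPS1, stood at 55.5 and 28.3 CPM in WT, 37.1 and 62.5 in the sgKDM5C libraries, 54.5 and 80.9 in those of sgKDM6A, and 49.9 and 67.1 in those of sgKMT2B. Its log2 differences of 0.24 ± 0.29, 0.68 ± 0.29 and 0.47 ± 0.29 were not called, and every knockout overlapped WT.

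Of the 8 members that hold or release the spindle checkpoint and start anaphase, 2 were called, each in 1 knockout. Of all genes tested, 48.5% were called in at least 1 of the comparisons with WT. UBE2C, the ubiquitin-conjugating enzyme of the anaphase-promoting complex (chr20:45812576-45816957), stood at 174 and 162 CPM in WT, 175 and 159 under sgKDM5C, 162 and 164 under sgKDM6A, and 247 and 249 under sgKMT2B. The sgKMT2B libraries stood apart from the other 6, at 0.56 ± 0.09 above WT (adjusted p = 0.000474), and the call was kept when any 1 library was left out. The neighbours of UBE2C on chromosome 20 had a median change of 0.40 in sgKMT2B. Genes around AURKA and TPX2, on the same chromosome, had medians of 0.44 and 0.34 there. The part of this shared shift in the UBE2C value was not tested.

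ESPL1, separase, the protease that cuts cohesin at anaphase (chr12:53268299-53293643), stood at 144 and 156 CPM in WT, 160.4 and 147 with sgKDM5C, 199 and 203 with sgKDM6A, and 172 and 176 with sgKMT2B. It rose in sgKDM6A by 0.42 ± 0.09 (adjusted p = 0.00401), kept that call when any 1 library was left out, and had a neighbour median of -0.08. PTTG1, securin, which holds separase inactive, changed by -0.11, -0.09 and -0.10 and was not called. BUB1B, MAD2L1, CDC20 and SGO1 had changes between -0.23 and 0.32, none of them called. SGO2, which protects centromeric cohesin, stood at 10.6 and 11.5 CPM in WT, 7.68 and 25.7 in the sgKDM5C libraries, 14.6 and 32.4 in those of sgKDM6A, and 16.8 and 21.7 in those of sgKMT2B. Replicate 2 was the higher library of SGO2 in each group, and its change of 1.09 ± 0.43 in sgKDM6A did not pass (adjusted p = 0.0774).

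Among all 52 members, CENPF had the smallest p of the joint test. CENPF, a large protein of the outer kinetochore that accumulates in G2 (chr1:214603195-214664588), stood at 43.9 and 41.6 CPM in WT, 61.7 and 90.3 under sgKDM5C, 106 and 103 under sgKDM6A, and 114 and 114 under sgKMT2B. Every knockout library lay above both WT libraries, and the sgKDM5C pair was lower and wider apart than the pairs of sgKDM6A and sgKMT2B. The changes were 0.83 ± 0.14 (adjusted p = 0.00164), 1.29 ± 0.14 (adjusted p = 4.57e-05) and 1.41 ± 0.15 (adjusted p = 1.86e-05), and all 3 calls were kept when any 1 library was left out. Its neighbours had medians of 0.09, 0.24 and 0.48. With offsets for GC content the changes were 0.77, 1.19 and 1.33, all called.

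CENPA, the histone H3 variant that marks the centromere (chr2:26764289-26801067), stood at 22.1 and 28.3 CPM in WT, 17.7 and 17.2 with sgKDM5C, 23 and 21.7 with sgKDM6A, and 24.6 and 24.6 with sgKMT2B. It was lower in sgKDM5C by a log2 change of -0.52 ± 0.15 (adjusted p = 0.0205), and the genes around it had a median of -0.44. The call did not hold without WT replicate 2 (-0.35, adjusted p = 0.138) or either sgKDM5C library. The part of the neighbourhood in this value was not tested.

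The NDC80 complex binds microtubules at the kinetochore, and its subunits NDC80, NUF2 and SPC25 are members of the list. NDC80 stood at 30.0 and 28.1 CPM in WT, 37 and 32.4 in the sgKDM5C libraries, 39 and 38.3 in those of sgKDM6A, and 34.2 and 29.9 in those of sgKMT2B. It rose in sgKDM6A by 0.41 ± 0.13 (adjusted p = 0.0288). SPC25, the least abundant of the 3, stood at 1.03 and 1.1 CPM in WT, 2.44 and 1.59 under sgKDM5C, 2.18 and 2.47 under sgKDM6A, and 1.85 and 1.73 under sgKMT2B. Its WT values rest on 25 and 17 counts, and it rose in sgKDM6A by 1.12 ± 0.35 (adjusted p = 0.0303). Neither call held without WT replicate 2 or either sgKDM6A library (adjusted p up to 0.13 for NDC80 and 0.119 for SPC25), and that of SPC25 was also lost without WT replicate 1. With GC offsets the adjusted p was 0.0988 for NDC80 and 0.0522 for SPC25. NUF2 and the kinetochore motor CENPE were not called. CENPE stood at 10.5 and 12.7 CPM in WT and 13.4 and 30.8 in sgKDM6A (adjusted p = 0.0539).

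The mitotic kinesins are motors that move along or take apart spindle microtubules, and those called were all higher than WT. KIF11, which pushes the spindle poles apart (chr10:92593286-92655395), stood at 85 and 56.7 CPM in WT, 128 and 129 with sgKDM5C, 122 and 116 with sgKDM6A, and 84.4 and 81.7 with sgKMT2B. Both libraries of sgKDM5C and of sgKDM6A were above WT, and sgKMT2B overlapped it. The changes were 0.85 ± 0.14 (adjusted p = 0.00134), 0.74 ± 0.14 (adjusted p = 0.00222) and 0.22 ± 0.14 (adjusted p = 0.272), and the 2 calls were kept when any 1 library was left out. Its neighbours had medians of 0.02, 0.08 and -0.39.

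KIF14, which acts in the last step of cell division (chr1:200551497-200620734), stood at 18.6 and 12.2 CPM in WT, 23.3 and 29.2 in the sgKDM5C libraries, 29.9 and 35.9 in those of sgKDM6A, and 39.8 and 34.3 in those of sgKMT2B. All knockout libraries exceeded both WT libraries. The changes were 0.75 ± 0.19 (adjusted p = 0.0126), 1.08 ± 0.19 (adjusted p = 0.00119) and 1.25 ± 0.19 (adjusted p = 0.00037), beside neighbour medians of -0.10, -0.23 and 0.31. In sgKDM5C the call did not hold without WT replicate 2 (0.48, adjusted p = 0.101) and without sgKDM5C replicate 2. KIF23, the kinesin of the central spindle, stood at 49.8 and 48.2 CPM in WT, 60.4 and 54.6 under sgKDM5C, 59.1 and 61.7 under sgKDM6A, and 58.8 and 56.2 under sgKMT2B. It passed in sgKDM6A by a narrow margin, at 0.30 ± 0.11 (adjusted p = 0.0499), and the call was lost without any 1 of the 8 libraries (adjusted p up to 0.202) and with GC offsets (adjusted p = 0.0744). KIF18A, KIF18B, KIF20A, KIF2C and KIF4A were not called in any knockout, with changes between -0.21 and 0.37.

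Of the 8 proteins that build or bundle spindle microtubules, ASPM, CKAP2, CKAP2L and CKAP5 were called by the joint test, a share of 50% beside the 49% of all genes. ASPM, a spindle pole protein (chr1:197084128-197146694), stood at 42.1 and 29.1 CPM in WT, 44.3 and 66.9 with sgKDM5C, 63.9 and 75.7 with sgKDM6A, and 66.4 and 71 with sgKMT2B. The lower sgKDM5C library was just above the higher WT library. The changes were 0.63 ± 0.19 (adjusted p = 0.0294), 0.96 ± 0.19 (adjusted p = 0.00259) and 0.94 ± 0.19 (adjusted p = 0.00278), beside neighbour medians of -0.03, 0.12 and 0.50. The sgKDM5C call did not hold without sgKDM5C replicate 2 (0.30, adjusted p = 0.32) and without WT replicate 2.

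CKAP2L (chr2:112736607-112764677), a spindle protein related to CKAP2, stood at 14.6 and 15 CPM in WT, 26.8 and 24.4 in the sgKDM5C libraries, 20.5 and 23.3 in those of sgKDM6A, and 25.5 and 27 in those of sgKMT2B. Its WT libraries were close together and all knockout libraries were higher. The changes were 0.79 ± 0.14 (adjusted p = 0.00161), 0.57 ± 0.14 (adjusted p = 0.00847) and 0.83 ± 0.14 (adjusted p = 0.000701), and its neighbours were near 0 (0.03, 0.07 and 0.07). The sgKDM6A call did not hold without sgKDM6A replicate 2 (0.48, adjusted p = 0.0742). CKAP2 (chr13:52455429-52476628) stood at 97.1 and 82.9 CPM in WT, 115 and 112 under sgKDM5C, 131 and 133 under sgKDM6A, and 88.1 and 86.6 under sgKMT2B. It rose by 0.33 ± 0.10 in sgKDM5C (adjusted p = 0.0278) and 0.55 ± 0.10 in sgKDM6A (adjusted p = 0.00138), and its change in sgKMT2B was -0.04 ± 0.10 beside a neighbour median of -0.40. The sgKDM5C call did not hold without WT replicate 2, either sgKDM5C library or either sgKMT2B library (adjusted p up to 0.167), and with GC offsets (adjusted p = 0.183).

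CKAP5, the microtubule polymerase also called ch-TOG (chr11:46743048-46846308), was the member that fell in all 3 knockouts. It stood at 479 and 508 CPM in WT, 385 and 414 with sgKDM5C, 359 and 406 with sgKDM6A, and 373 and 392 with sgKMT2B. No knockout library reached the lower WT value. It fell by 0.30 ± 0.09 (adjusted p = 0.0262), 0.37 ± 0.09 (adjusted p = 0.00855) and 0.37 ± 0.09 (adjusted p = 0.00806) on the log2 scale, with neighbour medians of -0.15, -0.14 and -0.05. Each call was lost without replicate 1 of its own knockout (adjusted p up to 0.184), and that of sgKDM5C also without WT replicate 2.

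HMMR, a microtubule-binding protein of the spindle, stood at 50.7 and 34.3 CPM in WT, 52 and 71.6 in the sgKDM5C libraries, 55.7 and 74 in those of sgKDM6A, and 57.5 and 65.1 in those of sgKMT2B. Knockout values all lay above WT, and it rose in sgKDM6A by 0.60 ± 0.19 (adjusted p = 0.0332). The changes of 0.53 ± 0.19 in sgKDM5C (adjusted p = 0.0627) and 0.52 ± 0.19 in sgKMT2B (adjusted p = 0.0593) did not pass. The sgKDM6A call did not hold without sgKDM6A replicate 2 (0.39, adjusted p = 0.238), without WT replicate 2 and with GC offsets (adjusted p = 0.0505). DLGAP5 was not called. NUSAP1 stood at 0.482 to 1.28 CPM and PRC1 at 1.79 to 2.99 CPM over the 8 libraries. In GENCODE 29, 62.2% of the exon bases of NUSAP1 and 57.6% of those of PRC1 also belong to another protein-coding gene on the same strand, so reads there could be left out of their counts, and their values are uncertain.

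Of the cytokinesis genes, ECT2, the exchange factor that switches on RhoA at the cleavage site, stood at 93.6 and 62.7 CPM in WT, 95 and 104 under sgKDM5C, 106 and 122 under sgKDM6A, and 99 and 106 under sgKMT2B. It rose in sgKDM6A by 0.54 ± 0.15 (adjusted p = 0.0178). The call did not hold without WT replicate 2 (0.29, adjusted p = 0.117) or sgKDM6A replicate 2. The changes in sgKDM5C and sgKMT2B were 0.35 ± 0.15 and 0.39 ± 0.15 and did not pass (adjusted p = 0.117 and 0.071). ANLN, the contractile ring scaffold anillin, was not called.

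Condensin folds mitotic chromosomes, and its subunits did not move together. SMC4, a core ATPase subunit (chr3:160399274-160434962), stood at 119.7 and 85.7 CPM in WT, 129 and 166 with sgKDM5C, 98.8 and 108 with sgKDM6A, and 111 and 110.0 with sgKMT2B. It rose in sgKDM5C by 0.52 ± 0.15 (adjusted p = 0.0232) although its neighbours had a median of -0.30. The call did not hold without sgKDM5C replicate 2 (0.31, adjusted p = 0.22) or WT replicate 2.

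NCAPG (chr4:17810902-17844862), another condensin subunit, stood at 87.1 and 62.6 CPM in WT, 84.5 and 93.9 in the sgKDM5C libraries, 93.2 and 105 in those of sgKDM6A, and 53.3 and 59.8 in those of sgKMT2B. It was called higher in sgKDM6A at 0.40 ± 0.14 (adjusted p = 0.0497) and lower in sgKMT2B at -0.41 ± 0.14 (adjusted p = 0.0465), where the genes around it had a median of -0.55. Of its exon bases, 33.1% overlap the antisense gene LCORL, and 18.5% of those of SMC4 overlap TRIM59. With the strand setting not given, reads of these pairs cannot be told apart. The sgKDM6A call was lost without any 1 of 7 libraries, all but WT replicate 1 (adjusted p up to 0.33), with the replicate number as a block (adjusted p = 0.0504) and with GC offsets (adjusted p = 0.112). The sgKMT2B call was lost without any 1 of 6 libraries, all but WT replicate 2 and sgKDM5C replicate 2 (adjusted p up to 0.448). NCAPD2, NCAPH and TOP2A, which untangles DNA, had changes between -0.14 and 0.13 and were not called.

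FOXM1, the transcription factor of the list, stood at 213 and 231 CPM in WT, 229.5 and 216 under sgKDM5C, 221 and 203 under sgKDM6A, and 221 and 233 under sgKMT2B. All groups overlapped WT, and the changes were 0.00 ± 0.09, -0.07 ± 0.09 and 0.03 ± 0.09. Of its exon bases, 15.9% overlap ITFG2 on the other strand.

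**Figure D2:**
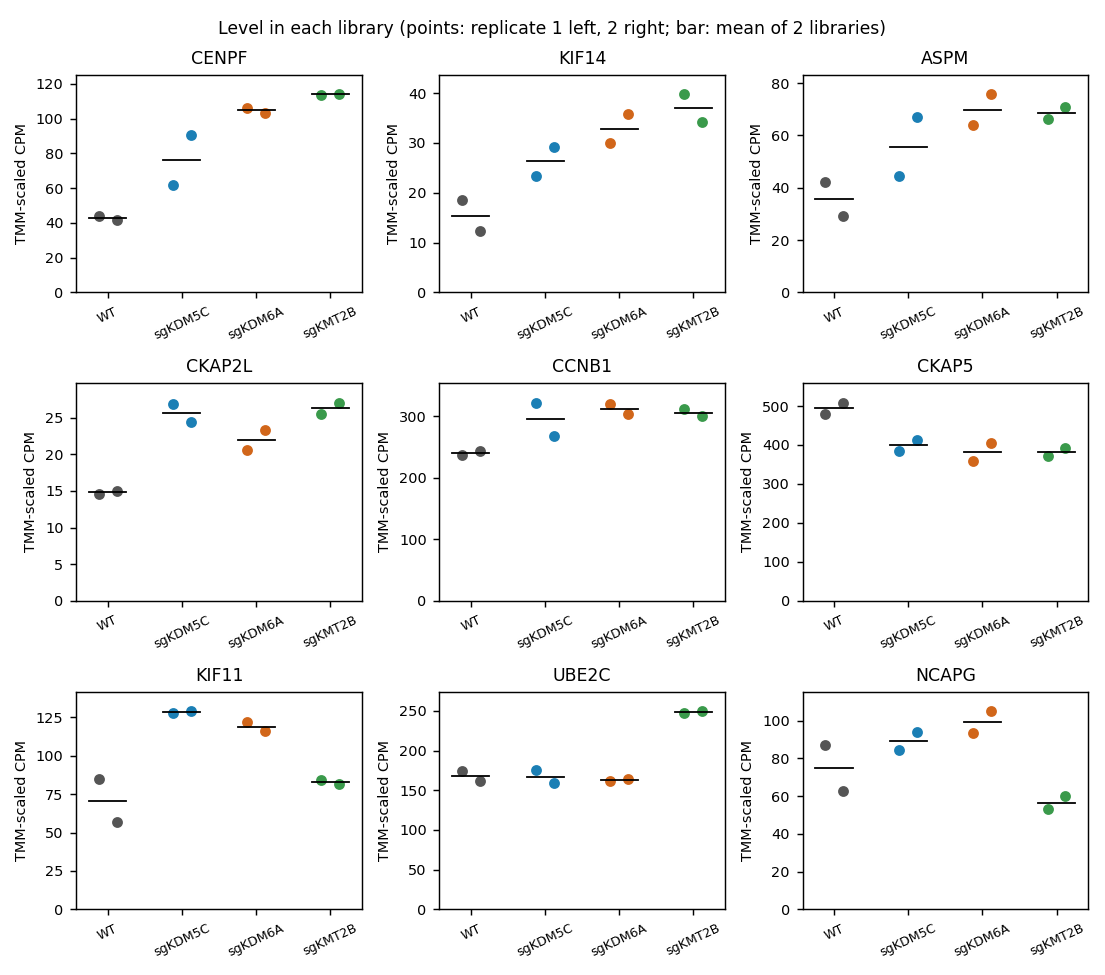
TMM-scaled CPM (vertical axis, from 0) of 9 members in each of the 8 libraries, with points for libraries and bars for the mean of the 2 libraries of a group. CENPF, KIF14, ASPM, CKAP2L and CCNB1 lie higher and CKAP5 lower in every knockout library than in WT, KIF11 is high in sgKDM5C and sgKDM6A, UBE2C is high in sgKMT2B, and NCAPG is lowest in sgKMT2B.

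The knockouts were also compared with each other. Between sgKDM5C and sgKDM6A, 2 members were higher in sgKDM5C and 4 lower, where 19.8% of all genes were called (10.9% higher and 8.86% lower). AURKB was higher by 0.43 ± 0.09 (adjusted p = 0.00455) and SMC4 by 0.51 ± 0.15 (adjusted p = 0.0259). CCNA2 was lower at -0.36 ± 0.12 (adjusted p = 0.0484), BUB1B at -0.34 ± 0.10 (adjusted p = 0.026), ESPL1 at -0.38 ± 0.09 (adjusted p = 0.00855) and CENPF at -0.46 ± 0.14 (adjusted p = 0.0331). BUB1B, a checkpoint kinase-like protein, stood at 65.3 and 68.6 CPM in sgKDM5C and 83.2 and 86.1 in sgKDM6A, on either side of WT at 75.5 and 81.4. With 1 library left out, the count higher ran from 0 without sgKDM6A replicate 1 to 2, and the count lower from 0 without sgKDM6A replicate 2 to 8 without WT replicate 2.

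Between sgKDM5C and sgKMT2B, 4 members were higher in sgKDM5C and 5 lower, where 22.1% of all genes were called (11.6% higher and 10.5% lower). KIF11 was higher by 0.63 ± 0.14 (adjusted p = 0.00616) beside a neighbour median of 0.32, CKAP2 by 0.38 ± 0.10 (adjusted p = 0.0142) beside 0.39, and NCAPG by 0.66 ± 0.14 (adjusted p = 0.00445) beside 0.62. UBE2C was lower at -0.57 ± 0.09 (adjusted p = 0.000478) beside a neighbour median of -0.45, TPX2 at -0.46 ± 0.09 (adjusted p = 0.00333) beside -0.42, and AURKA at -0.45 ± 0.11 (adjusted p = 0.0112) beside -0.49. CENPF was lower at -0.58 ± 0.14 (adjusted p = 0.00891) and CENPA at -0.49 ± 0.14 (adjusted p = 0.0252), with neighbour medians of -0.44 and -0.37. For 8 of the 9 called members, AURKB being the exception, the neighbours thus differed in the same direction by 0.32 or more. AURKB was higher by 0.38 ± 0.09 (adjusted p = 0.00824), and its neighbour median was -0.03. Without either sgKMT2B library 1 member was called higher, and the count lower ran from 3 without sgKDM5C replicate 1 or sgKMT2B replicate 1 to 8 without either WT library.

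Between sgKDM6A and sgKMT2B, 3 members were higher in sgKDM6A and 1 lower, where 24.9% of all genes were called (12.4% higher and 12.5% lower). NCAPG was higher by 0.81 ± 0.14 (adjusted p = 0.000883), CKAP2 by 0.60 ± 0.10 (adjusted p = 0.000616) and KIF11 by 0.52 ± 0.14 (adjusted p = 0.0164), and UBE2C was lower at -0.61 ± 0.09 (adjusted p = 0.000235). Their neighbours had medians of 0.56, 0.52, 0.40 and -0.48. Leaving out either WT library gave 5 higher and 2 lower. Of the 19 member calls between knockouts, 5 were called in all 16 alternatives run: TPX2 and UBE2C between sgKDM5C and sgKMT2B, and UBE2C, CKAP2 and NCAPG between sgKDM6A and sgKMT2B. Setting aside the 7 members on chromosomes 9, 10, 13 and 20 left 1 higher and 0 lower in this comparison, and 2 and 2 between sgKDM5C and sgKMT2B. All 7 lie on chromosomes 10, 13 and 20. Tested genes of at least 5 CPM there had medians of 0.35, 0.52 and -0.30 between sgKDM6A and sgKMT2B. NCAPG, on chromosome 4, was kept although its neighbours had a median of 0.56, so the remaining counts are not free of such shifts. The part of the chromosomal position in these calls was not tested.

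**Figure D3:**
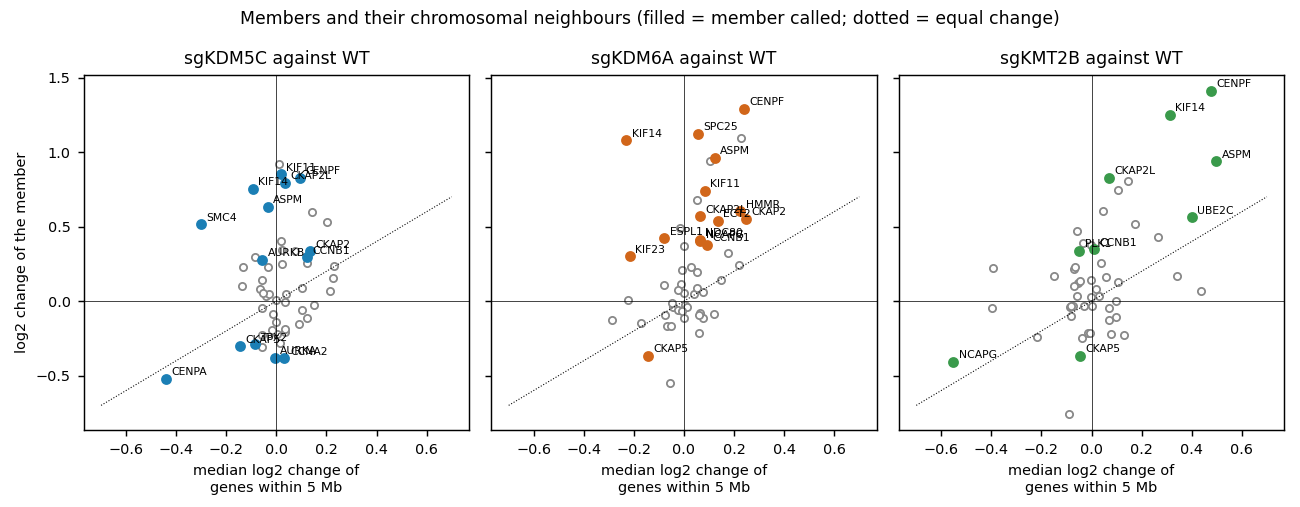
Fitted log2 change against WT of each member (vertical axis) against the median log2 change of the tested genes of at least 5 CPM within 5 Mb of it (horizontal axis), with filled, named points for called members and a dotted line of equal change. In sgKMT2B, UBE2C (0.56 beside 0.40) and NCAPG (-0.41 beside -0.55) lie near the line, and CKAP2L (0.83 beside 0.07) and CENPF (1.41 beside 0.48) lie above it.

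The base composition of the transcripts moved with the results. Of the 49 members of at least 5 CPM, 20 have a longest transcript in the lowest quintile of GC content of all 11243 such genes (30.2% to 40.8% GC). All 2249 genes of that quintile had median changes of 0.14, 0.19 and 0.17 in sgKDM5C, sgKDM6A and sgKMT2B, and the 20 members 0.33, 0.51 and 0.24. Of those 20 members, 6, 9 and 3 were called higher (30%, 45% and 15%), where 16.7%, 23.6% and 23.9% of all genes of the quintile were, and NCAPG was called lower in sgKMT2B. The sgKMT2B share thus lay below that of the quintile. Within WT, replicate 2 stood below replicate 1 by a median of -0.22 in that quintile, and within the knockouts the medians were 0.06, 0.06 and 0.01. Of the 20 members, 17 (85%) were lower in WT replicate 2 than in WT replicate 1, KIF11, ASPM, KIF14 and SMC4 among them, and CENPE, CKAP2L and SGO2 were higher. Over all genes of the quintile, 78.0% were lower in WT replicate 2. Within each knockout, most of the 20 members were instead higher in replicate 2 than in replicate 1. NUF2 stood at 20.4 and 35.5 CPM in sgKDM5C and TTK at 54.5 and 80.9 in sgKDM6A, while NDC80 was lower in replicate 2 of each knockout. The part of these replicate differences in the calls was not tested.

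With offsets that remove the trend with GC content in each library, an alternative chosen after seeing the data, 8 members rose and 4 fell in sgKDM5C, 10 rose and 1 fell in sgKDM6A, and 9 rose and 4 fell in sgKMT2B. The shares of all genes called with these offsets are not given here, so these counts cannot be set against a background. The 6 members called in all 3 knockouts were called in all 3 with these offsets too. KIF14 then changed by 0.63, 0.91 and 1.09, ASPM by 0.48, 0.76 and 0.74, CKAP2L by 0.72, 0.44 and 0.72, CCNB1 by 0.30, 0.34 and 0.34, and CKAP5 by -0.28, -0.39 and -0.35. CDK1 was called lower in sgKMT2B (-0.44, adjusted p = 0.0228), where its neighbours had a median of -0.22 without the offsets. In sgKMT2B, CKAP2 was also called lower (-0.26, adjusted p = 0.0463), and CDC25C (0.43, adjusted p = 0.026) and ESPL1 (0.25, adjusted p = 0.0342) higher. PLK1 was called higher in sgKDM6A (0.28, adjusted p = 0.0178). Without WT replicate 2, the shallowest library, 3 members rose and 1 fell in sgKDM5C, and 9 rose and 1 fell in sgKDM6A. Of the 38 member changes called against WT, 14 were kept when any 1 library was left out: UBE2C in sgKMT2B, ESPL1 in sgKDM6A, CENPF in all 3, KIF11 in sgKDM5C and sgKDM6A, KIF14 in sgKDM6A and sgKMT2B, ASPM in sgKDM6A and sgKMT2B, CKAP2 in sgKDM6A, and CKAP2L in sgKDM5C and sgKMT2B.

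**Figure D4:**
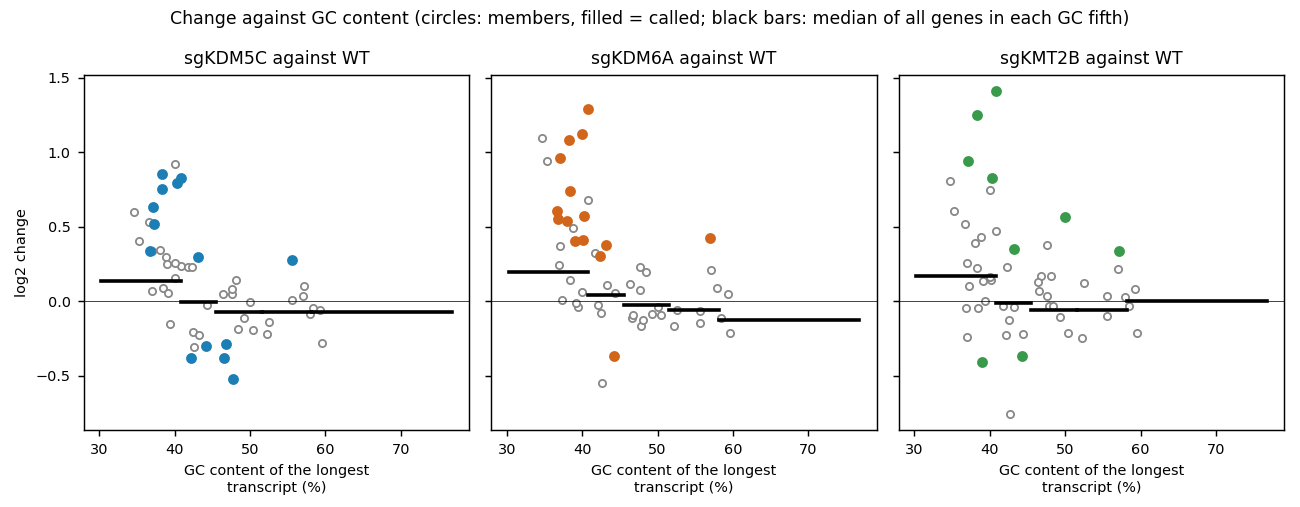
Fitted log2 change against WT of each of the 52 members (vertical axis) against the GC content of its longest GENCODE transcript in percent (horizontal axis). Filled points are called members, and black bars give the median of all genes of at least 5 CPM in each quintile of GC content. The bars fall from 0.14, 0.19 and 0.17 in the lowest quintile, where 6, 9 and 3 members of at least 5 CPM called higher lie. SPC25, below 5 CPM and called higher in sgKDM6A, also lies in that range of GC content.

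Compared per kilobase of exon, the list spans a wide range in WT. CDC20, the activator of the anaphase-promoting complex, stood at 141 CPM per kb, UBE2C at 130.5, TPX2 at 97.7, CCNB1 at 94, and BIRC5 at 84.6. CENPF stood at 3.66 CPM per kb, ASPM at 3.27, CKAP2L at 2.84, KIF14 at 2.12, SGO2 at 1.84 and CENPE at 1.23. Of the members that rose in all 3 knockouts, CCNB1 was thus high per length and CENPF, ASPM, CKAP2L and KIF14 were low, and NUSAP1 and PRC1 were lowest at 0.37 and 0.402.

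Other genes of the cycle were described from lists that do not overlap the 52. For comparison with them, 11.1%, 12.6% and 13.7% of all genes rose in sgKDM5C, sgKDM6A and sgKMT2B, and 11.5%, 14.6% and 14.5% fell. Of 69 other G2 and M phase genes tested, 11 rose and 8 fell in sgKDM5C (15.9% and 11.6%), 13 rose and 6 fell in sgKDM6A (18.8% and 8.70%), and 16 rose and 7 fell in sgKMT2B (23.2% and 10.1%), with medians of 0.13, 0.16 and 0.13. CCNF, a ubiquitin ligase subunit that peaks in G2, stood at 82.2 and 75 CPM in WT and 114 to 141 in the knockouts and rose in all 3 (0.59, 0.84 and 0.66). MKI67, the proliferation antigen Ki-67, rose in sgKDM5C (0.67 ± 0.09, adjusted p = 0.000294) and changed by 0.16 and 0.09 in the others without passing. CDC25A, a CDK phosphatase, fell in all 3 (-0.92, -0.34 and -0.70). CKS2, a small CDK-binding subunit, fell in sgKDM5C and sgKMT2B (-0.90 and -0.62), the kinesin KIF22 fell in all 3 with -0.65 in sgKMT2B, and the kinetochore subunit NSL1 rose in all 3 with 0.82 in sgKMT2B. In sgKDM6A, TUBB4B (a beta-tubulin), BORA (an activator of AURKA and PLK1) and SKA3 (a kinetochore subunit) rose by 0.90, 0.96 and 0.77.

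Among 24 genes of the MuvB core, MYB, E2F, RB and NF-Y factors, 4 rose in sgKDM5C (16.7%, beside 11.1% of all genes) and the rest did not pass. In sgKDM6A 1 rose and 3 fell (4.17% and 12.5%, beside 12.6% and 14.6%), and in sgKMT2B 6 rose and 4 fell (25% and 16.7%, beside 13.7% and 14.5%), and the medians were 0.08, 0.09 and 0.15. MYBL2, which encodes B-MYB, stood at 811 and 692 CPM in WT, 974 and 932 with sgKDM5C, 733 and 686 with sgKDM6A, and 1162 and 1183 with sgKMT2B. It rose by 0.34 ± 0.09 in sgKDM5C (adjusted p = 0.0141) and 0.64 ± 0.09 in sgKMT2B (adjusted p = 0.000184), and it lies on chromosome 20. LIN52, a MuvB subunit, fell in sgKDM6A (-0.59 ± 0.13, adjusted p = 0.00382) and sgKMT2B (-0.78 ± 0.13, adjusted p = 0.000598). E2F7 rose in sgKDM5C (0.35) and sgKMT2B (0.81), NFYB by 0.55 in sgKDM5C, and E2F2 fell in sgKMT2B (-0.96). RB1, on chromosome 13, rose in sgKDM5C (0.52) and fell in sgKMT2B (-0.44). In sgKDM6A, TFDP2 and DYRK1A fell (-0.44 and -0.49) and E2F3 rose (0.35).

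Of 50 G1 and S phase genes, more fell than rose in sgKDM5C and sgKMT2B, and the counts were nearly equal in sgKDM6A. In sgKDM5C 3 rose and 11 fell (6% and 22%, beside 11.1% and 11.5% of all genes), in sgKDM6A 8 rose and 9 fell (16% and 18%, beside 12.6% and 14.6%), and in sgKMT2B 4 rose and 13 fell (8% and 26%, beside 13.7% and 14.5%). The medians were -0.07, 0.01 and -0.06. Their summed level was 8312 and 8315 CPM in WT, 7708 and 7214 in the sgKDM5C libraries, 7876 and 7626 in those of sgKDM6A, and 7749 and 7682 in those of sgKMT2B, so all knockout libraries lay below both WT libraries. CDT1, which licenses replication origins, stood at 665 and 622 CPM in WT and 295 to 445 in the knockouts and fell in all 3 (-0.99, -0.87 and -0.70). RRM2, a ribonucleotide reductase subunit, and RFC3, of the clamp loader, each fell by 0.68 in sgKDM5C, and MCM2, of the replicative helicase, fell by 0.78 in sgKDM6A. CDK6 rose in sgKDM5C (1.16) and sgKDM6A (1.78), CCND1 (cyclin D1) rose in sgKDM6A (1.72), and CCND2 (-1.22), ORC1 (-0.69) and SLBP (-0.59) fell in sgKMT2B.

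Of 16 subunits and activators of the anaphase-promoting complex, 2, 5 and 4 rose in sgKDM5C, sgKDM6A and sgKMT2B and the rest did not pass (medians 0.01, 0.12 and 0.12). The shares higher were 12.5%, 31.2% and 25%, beside 11.1%, 12.6% and 13.7% of all genes. By edgeR's test, CDC27 rose by 0.44, 0.43 and 0.51 and CDC16 by 0.44, 0.58 and 0.66, ANAPC2 rose by 0.88 in sgKDM6A and 0.40 in sgKMT2B, CDC26 by 0.68 in sgKDM6A, and FZR1 by 0.44 in sgKMT2B. Of 17 cohesin and other condensin genes, 3 rose and 1 fell in sgKDM5C, 4 rose and 1 fell in sgKDM6A, and 6 rose and 1 fell in sgKMT2B (medians 0.19, 0.10 and 0.24). The shares higher were 17.6%, 23.5% and 35.3%, and 5.88% fell in each, beside 11.5%, 14.6% and 14.5% of all genes lower. STAG1 rose in all 3 (1.06, 0.56 and 1.01), SMC2, the partner of SMC4, rose in sgKDM6A (0.72), and PDS5B, on chromosome 13, fell in sgKMT2B (-0.89).

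Of 20 CDK inhibitors and p53-linked arrest genes, 5 rose and 2 fell in sgKDM5C (25% and 10%, beside 11.1% and 11.5% of all genes). In sgKDM6A 3 rose and 7 fell (15% and 35%, beside 12.6% and 14.6%), and in sgKMT2B 8 rose and 1 fell (40% and 5%, beside 13.7% and 14.5%). The medians were 0.02, -0.14 and 0.17, and the difference between knockouts was not tested for the list. CDKN1A, which encodes p21, stood at 90.9 and 115 CPM in WT, 105 and 97.5 under sgKDM5C, 39.1 and 37.9 under sgKDM6A, and 171 and 201 under sgKMT2B. GADD45A, a stress-induced gene that can hold cells in G2, stood at 119 and 144 CPM in WT and 23.5 to 53.7 in the knockouts, with changes of -1.85, -2.39 and -1.35. MDM2 rose in all 3 (0.81, 0.54 and 1.38), as did SESN2 (1.28, 0.87 and 1.57). CDKN2B fell in sgKDM6A (-1.44), and RPRM, reprimo, which is linked to G2 arrest, stood at 1.03 and 1.95 CPM in WT and 53.5 and 43.1 in sgKDM6A (5.08 ± 0.31, adjusted p = 2.01e-07). BTG2 rose in sgKMT2B (0.97). Whether p53 acts normally in this transformed line was not tested, so these values are not a measure of its activity.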

How the data were processed

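Messenger RNA of HEK293T cells was selected on poly-T beads, copied from random hexamer primers and read from both ends on a NovaSeq instrument, per the labels' protocols. The authors deposited raw read counts per Ensembl gene for the 8 libraries, made with STAR and HTSeq 0.11.2 against GRCh38, as the submitters' processing notes list. Not given in the sources used here are STAR's version, the annotation release and the strand setting. Groups came from the titles and genotypes in the labels.

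Counts were tested with edgeR 4.0.16 (R 4.3.3) by its quasi-likelihood functions (glmQLFit, glmQLFTest), with all 8 libraries in 1 fit, a coefficient for each group (4 residual degrees of freedom), TMM factors and filterByExpr, which left 17527 genes, and p-values were adjusted by the Benjamini-Hochberg method over all of them. Levels are TMM-scaled CPM. Data were simulated for sgKDM6A against WT from the 17527 genes, with 200 of them changed. Of those passing the filter, 13.3% with a true log2 change of 0.5, 58% with 1 and 0.0179% of unchanged genes were called. In the measured data 27.2% of genes were called in this comparison. Its cut on p is then less strict, and the simulated shares do not carry over to it. Coordinates and GC content come from GENCODE 29, promoters from RefSeq (GRCh38.p14). Replicates differed by more than counting noise (chi-square per degree of freedom of 7.57 to 15.3).

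Members with values are every member called against WT, the member of each role with the smallest joint p, CDK1, CCNB1, FOXM1, PLK1, AURKA and AURKB; for each related list, up to 4 called genes per knockout. A few others, such as TTK, SGO2, CENPE and BUB1B, were named after their values were seen. The members, lists and tests were chosen with earlier results of these data known. Alternatives were DESeq2 1.42.0, upper-quartile factors, other filters, equal depth, 2-group fits, a replicate block, each library left out, members off 4 chromosomes, and GC offsets.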

Additional observations from a re-analysis of the deposited data

How the results depend on the processing

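With 2 libraries a group, a member that was not called is not shown to be unchanged. Changes near a log2 of 0.5 were often missed in the simulated data. Fewer genes changed there than were called here, so how often such changes were missed in the measured data is not known. None of the 38 member changes called against WT or the 19 called between knockouts reversed its direction in the alternatives run for it. Of the 38, 14 were called in every one of up to 17 alternatives, and of the 19, 5 in all 16.

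With 1 library left out, the members higher ran from 3 to 11 in sgKDM5C against WT, 7 to 14 in sgKDM6A and 5 to 13 in sgKMT2B, and those lower from 1 to 9, 0 to 2 and 0 to 4. Between sgKDM5C and sgKDM6A they ran from 0 to 2 higher and 0 to 8 lower, between sgKDM5C and sgKMT2B from 1 to 5 and 3 to 8, and between sgKDM6A and sgKMT2B from 2 to 5 and 1 to 2. The joint test gave 14 to 24. The higher count of sgKDM5C fell to 3 when WT replicate 2 was left out and to 4 for sgKDM5C replicate 2, that of sgKDM6A was 7 without sgKDM6A replicate 2 and 9 without WT replicate 2, and that of sgKMT2B was 13 without WT replicate 1. The lower count of sgKDM5C was 9 without WT replicate 1 and 1 without WT replicate 2 or either sgKDM5C library.

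Fits on the libraries of the 2 groups compared gave 1 lower in sgKDM5C and 1 lower in sgKMT2B against WT, 8 lower in sgKDM5C than in sgKMT2B, and 5 higher and 2 lower in sgKDM6A than in sgKMT2B. In these fits the calls of CCNB1, CCNA2, AURKA, AURKB, TPX2, CKAP2 and CKAP5 in sgKDM5C, of KIF23 and NCAPG in sgKDM6A and of NCAPG in sgKMT2B were lost. No filter on low counts gave 13 higher in sgKMT2B than in WT, 8 lower in sgKDM5C than in sgKDM6A and 2 lower in sgKDM6A than in sgKMT2B, and AURKB in sgKDM5C and KIF23 in sgKDM6A lost their calls. DESeq2 gave 8 lower in sgKDM5C than in sgKMT2B and did not call SPC25. Upper-quartile factors gave 2 lower in sgKDM5C than in sgKDM6A and did not call TPX2. At equal depth 1 member was lower in sgKMT2B than in WT, and CCNA2 in sgKDM5C, SPC25, KIF23 and NCAPG in sgKDM6A, and NCAPG in sgKMT2B were lost. A mean of at least 1 CPM lost NCAPG in sgKDM6A (adjusted p = 0.0504). GC offsets gave 4 lower in sgKMT2B than in WT, and 5 higher and 2 lower in sgKDM6A than in sgKMT2B. Without the members on chromosomes 9, 10, 13 and 20, 3 were lower in sgKDM5C than in WT, 2 higher and 2 lower in sgKDM5C than in sgKMT2B, and 1 higher and 0 lower in sgKDM6A than in sgKMT2B. Shares of all genes called in these alternatives are not given here. Apart from the smaller list or fewer libraries in some of these, the cause was not tested.

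Replicate numbers are shared between groups, but same-numbered deviations correlated at -0.10 between WT and sgKDM5C, -0.03 between WT and sgKDM6A and 0.02 between WT and sgKMT2B, and at 0.31 to 0.48 between knockouts, and no label says what a number marks. With 2 numbers in each group, and no correlation over 0.1 with WT, the numbers were not taken as pairs. With the replicate block, the counts higher and lower than WT were 9 and 6 for sgKDM5C (INCENP gained), 15 and 1 for sgKDM6A (SGO2 and CENPE gained, NCAPG lost), and 7 and 2 for sgKMT2B. All 19 calls between knockouts were kept with the block, 7 members instead of 5 were lower in sgKDM5C than in sgKMT2B (NCAPD2 and PLK1 gained), and 2 instead of 1 were lower in sgKDM6A than in sgKMT2B (TPX2 gained). The joint count was 22 instead of 19. Crossing the numbers of WT and sgKDM5C, added after seeing the data, gave 11 higher and 6 lower.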
